A study of Mus musculus with 19 samples.

Results

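Basophils and mast cells are rare granulated leukocytes that carry IgE on the cell surface. A list of 8 genes taken as their markers was followed through bulk RNA-seq libraries of sorted bone marrow cells of the mouse. The 8 genes are Fcer1a, Ms4a2, Prss34, Cpa3, Hdc, Cyp11a1, Il4 and Gata2, of 50854 genes in the table of counts. They were chosen because the list as a whole had been seen to be higher in inflamed than in resting cells of these same libraries, so inflamed and resting levels of these genes are described below and carry no test. Comparisons between sorted populations of the same state are other contrasts and were tested, although the inflamed libraries in them are those whose levels led to the choice.

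An IgE-bearing cell binds IgE through the alpha chain of the high-affinity receptor (Fcer1a), and the beta chain (Ms4a2) and gamma chain (Fcer1g) carry the signal inward once antigen crosslinks the bound IgE. The cell then empties granules that hold proteases and histamine, and it releases lipid mediators and type 2 cytokines such as IL-4. In the bone marrow these lineages depend on the transcription factor GATA2, and IL-3 is a known growth factor of mouse basophils.

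The cells came from female REP mice aged 8 to 12 weeks, a reporter strain in which spectrally distinct fluorescent proteins mark expression of CCR1, CCR2 and related chemokine receptors, and all groups carry these reporters. Monocytes that expressed both CCR1 and CCR2 (CCR1/2+ve) or CCR2 alone (CCR2+ve) were sorted from resting mice, with 4 libraries of each. The inflamed groups came from mice labelled as inflamed, which the study describes as carrying a subcutaneous pump for 7 d that released a cytokine mixture. It delivered IL-3 and GM-CSF at 15 ng each per hour and IL-6 at 16 ng per hour, together with IFN-α. They comprised 3 libraries of CCR1/2+ve monocytes (replicates 2 to 4), 4 of CCR2+ve monocytes and 4 labelled CCR1 alone. By that description the inflamed monocyte groups received IL-3 together with the other cytokines of the mixture, and the resting groups did not. The study's text does not say whether this also holds for the libraries labelled CCR1 alone. The parts of the pump and of each cytokine cannot be told apart. Nothing in the labels says whether replicates came from separate mice, so p values measure the spread between these samples, which may be technical. The 19 libraries ranged in depth from 22268658 to 30502009 reads assigned to genes. Levels are reads per M normalised reads (CPM), and 3 reads over all libraries of a group, which correspond to 0.0248 to 0.0473 CPM, were taken as the floor.

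Markers of monocytes were high in 4 of the 5 groups and low in the other. All 18 genes of a monocyte core list were above 1 CPM in both resting groups and in the inflamed CCR1/2+ve and CCR2+ve groups. In the libraries labelled CCR1 alone, 14 of the 18 were called lower than in inflamed CCR2+ve monocytes (median log2 fold change −4.71), with Csf1r, the receptor of macrophage colony-stimulating factor, at 17.7 against 1504 CPM and Ccr2 at 5.81 against 1251 CPM. Their summed monocyte core level was 11340 to 16707 CPM against 70884 to 86826 CPM. The leading markers in these libraries were of the neutrophil lineage, with Ngp at 85941 CPM and Elane at 24861 CPM. Ccr1 itself was lower there than in any other group, at 38.0 CPM against 75.1 to 310 CPM in the other 4, and the study's text does not describe this group. It is therefore called CCR1-labelled and not monocytes, and every test and ratio with it is given apart from those between the monocyte groups. Read ranges and correlations over all inflamed libraries include it.

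The 8 genes lie on 8 different chromosomes (GENCODE M21, GRCm38) and are all protein coding. Fcer1a (ENSMUSG00000005339) spans chr1:173221284-173227214 and Ms4a2 (ENSMUSG00000024680) chr19:11615523-11623719, both on the minus strand. Prss34 (ENSMUSG00000056399) spans chr17:25298394-25300165 on the plus strand and Cpa3 (ENSMUSG00000001865) chr3:20215620-20242181 on the minus strand. Hdc (ENSMUSG00000027360) spans chr2:126593667-126619299 on the minus strand and Cyp11a1 (ENSMUSG00000032323) chr9:58006411-58027023 on the plus strand. Il4 (ENSMUSG00000000869) spans chr11:53602982-53618669 on the minus strand and Gata2 (ENSMUSG00000015053) chr6:88193891-88207032 on the plus strand. Of these, Cyp11a1 is overlapped by another gene, Gm17322 on the same strand, over 3.02% of its exonic bases, and no annotated gene shares exonic bases with the other 7.

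The promoters of all 8 genes were searched for the letters recognised by GATA factors, because one of the 8 genes encodes such a factor and the promoter sequence took no part in the choice of genes. The search was for AGATAA or TGATAA on either strand (TTATCT or TTATCA on the strand as read), in windows of 250 bases before and 50 after each annotated start (RefSeq, GRCm38.p6). At least 1 match was found for 5 of the 8 genes and for 5664 of all 27025 genes with such a window. Matches began 46 bases before the start of Cpa3, 92 before that of Fcer1a, 31 before that of Prss34 and 224, 37 and 11 before that of Ms4a2, and 15 bases after 1 of the 2 starts of Il4. Ms4a2 held the only 1 of the 11 windows of these genes with 2 or more matches, against 3.26% of all windows. The E-box letters CANNTG, searched on the same windows, were found for 7 of the 8 genes and for 75.0% of all genes. A match is a description of letters and does not say that a factor binds. The 250 bases before the start of the 4 genes with an upstream match are shown 5′ to 3′ on the strand of the gene, with the matches in capitals, at chr3:20242182-20242431 (Cpa3, minus), chr1:173227230-173227479 (Fcer1a, minus), chr19:11623720-11623969 (Ms4a2, minus) and chr17:25298144-25298393 (Prss34, plus).
Cpa3: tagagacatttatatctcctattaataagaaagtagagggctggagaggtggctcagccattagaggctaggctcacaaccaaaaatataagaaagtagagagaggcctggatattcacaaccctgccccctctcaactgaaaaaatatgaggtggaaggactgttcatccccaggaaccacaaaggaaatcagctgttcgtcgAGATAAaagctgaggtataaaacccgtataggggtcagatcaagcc
Fcer1a: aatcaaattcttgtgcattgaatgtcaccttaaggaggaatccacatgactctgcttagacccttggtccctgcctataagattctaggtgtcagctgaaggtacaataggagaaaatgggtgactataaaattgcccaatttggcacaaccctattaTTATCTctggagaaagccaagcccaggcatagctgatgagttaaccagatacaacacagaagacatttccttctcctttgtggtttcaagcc
Ms4a2: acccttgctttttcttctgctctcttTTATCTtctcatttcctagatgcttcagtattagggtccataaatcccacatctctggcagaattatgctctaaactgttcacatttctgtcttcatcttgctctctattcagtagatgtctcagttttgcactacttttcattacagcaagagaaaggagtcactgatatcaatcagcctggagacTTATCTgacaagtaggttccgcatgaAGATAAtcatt
Prss34: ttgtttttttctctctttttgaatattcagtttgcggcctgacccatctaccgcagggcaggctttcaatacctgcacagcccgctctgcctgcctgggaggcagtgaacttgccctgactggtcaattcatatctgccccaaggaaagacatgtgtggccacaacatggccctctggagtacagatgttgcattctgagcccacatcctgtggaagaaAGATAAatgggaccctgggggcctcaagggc

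In inflamed monocytes 6 of the 8 genes were higher than in resting monocytes in every library, and they were the same 6 in both populations. These were the alpha and beta chains of the IgE receptor, both granule proteases, Cyp11a1 and Gata2. Among all genes tested, 22.2% were higher in every inflamed CCR2+ve library than in every resting one, and 24.4% in the CCR1/2+ve libraries, and since the list was chosen on this contrast nothing is read from the counts of 6. The other 2 genes, Hdc and Il4, overlapped between the states in both populations. The median log2 ratio of the 8 was 3.57 for CCR2+ve monocytes and 3.11 for CCR1/2+ve monocytes, where the medians of the fitted log2 fold change over all genes tested were −0.10 and −0.25. Ratios below are of the reads of a group pooled over its libraries, per M normalised reads, with 95% intervals that cover counting error only. In bulk samples such as these, fewer cells of a type and less RNA per cell cannot be told apart.

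**Figure D1:**
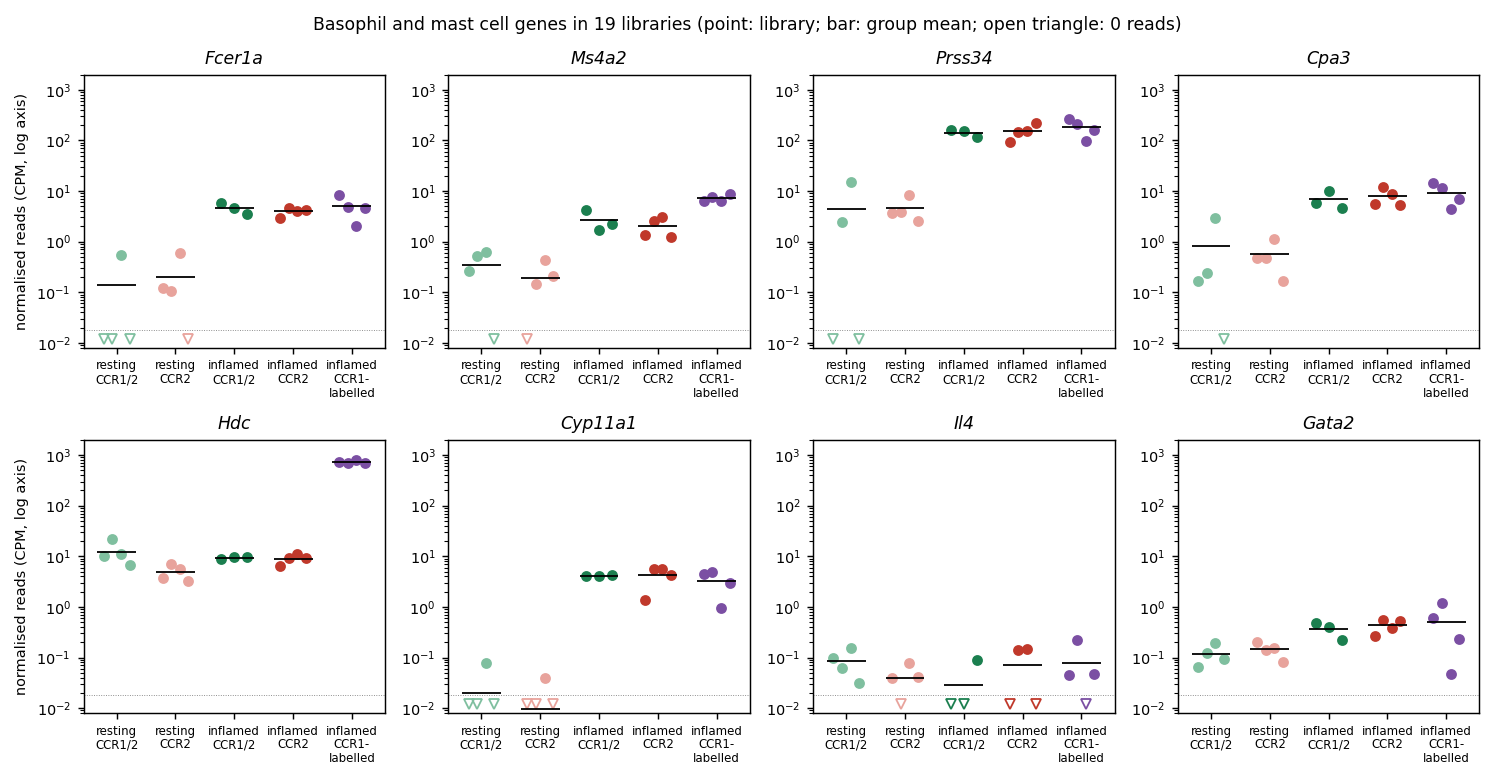
Normalised reads (CPM, log axis) of the 8 genes in each of the 19 libraries, grouped by state and sorted population, with the group mean as a bar and libraries with 0 reads as open triangles below the dotted line. Fcer1a, Ms4a2, Prss34, Cpa3, Cyp11a1 and Gata2 sit higher in every inflamed monocyte library than in the resting libraries of the same population, and Hdc stands near 719 CPM in the CCR1-labelled libraries alone.

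Fcer1a, the chain that binds IgE, was close to absent in resting cells. The 4 resting CCR1/2+ve libraries held 0, 0, 14 and 0 reads and the 4 resting CCR2+ve libraries 3, 3, 15 and 0. In the inflamed state the reads were 117, 94 and 80 in CCR1/2+ve libraries, 66, 98, 85 and 100 in CCR2+ve libraries and 184, 105, 45 and 100 in CCR1-labelled libraries. The lowest inflamed library, CCR1-labelled replicate 3, held 45 reads and the highest resting library 15, so the states did not overlap. The means were 4.63 ± 1.08 CPM (SD, n = 3) for inflamed CCR1/2+ve and 3.97 ± 0.724 CPM (SD, n = 4) for inflamed CCR2+ve libraries. The ratio to resting cells was 39.7 (23.3 to 73.5) and 19.4 (12.5 to 31.7) in the 2 populations. All 14 reads of the resting CCR1/2+ve group fell in replicate 3, and without it the group held 0 reads in 3 libraries and the inflamed level was at least 146-fold higher, set against the floor of 3 reads over the group, with 118 as the lower end of the counting interval. In the CCR2+ve group 15 of the 21 resting reads were in replicate 3, and the ratio was 50.8 (23.1 to 139) without it.

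Ms4a2, the signalling beta chain, was also low in resting cells. Its reads were 8, 17, 16 and 0 in resting CCR1/2+ve and 0, 4, 11 and 5 in resting CCR2+ve libraries. Inflamed libraries held 87, 34 and 51 reads in CCR1/2+ve and 31, 55, 62 and 29 in CCR2+ve monocytes, all above the resting range. The CCR1-labelled libraries held 138, 170, 138 and 183 reads and stood above all others. The ratio of inflamed to resting was 8.01 (5.67 to 11.6) in CCR1/2+ve and 10.3 (6.48 to 17.3) in CCR2+ve monocytes, and the latter was 17.2 without resting CCR2+ve replicate 3.

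The gamma chain Fcer1g, which monocytes also use for their IgG receptors, was not one of the 8 genes and was abundant throughout. Per kb of exonic sequence it stood at 1937 and 2665 CPM in resting CCR1/2+ve and CCR2+ve monocytes, at 2120 and 2007 in the inflamed ones and at 649 in the CCR1-labelled libraries. On the same scale Fcer1a reached 4.64 and 3.98 CPM per kb, and Ms4a2 0.966 and 0.727 CPM per kb, in inflamed CCR1/2+ve and CCR2+ve monocytes. Fcer1g was not called between the states, with a log2 fold change of 0.01 in CCR1/2+ve (SE 0.092, edgeR adjusted p = 0.964) and −0.48 in CCR2+ve monocytes (SE 0.10, edgeR adjusted p = 0.00109, inside the fold cutoff).

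**Figure D2:**
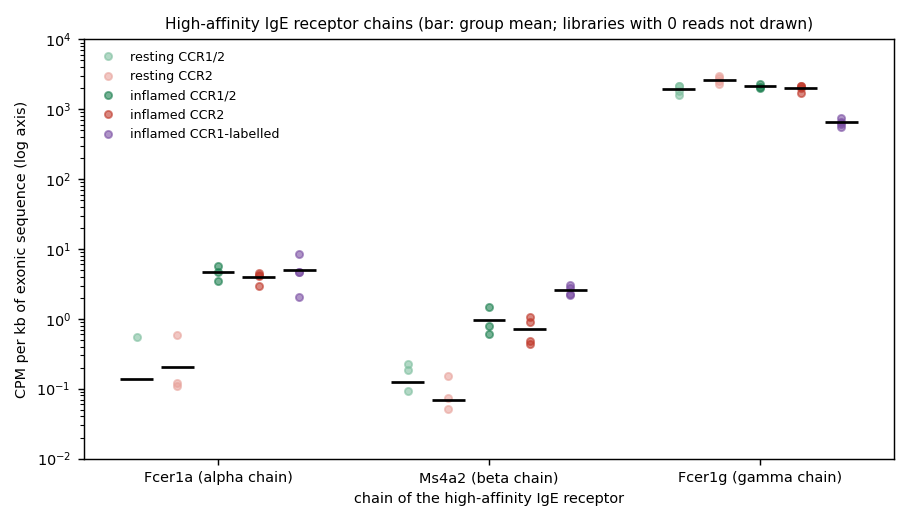
Level of the 3 chains of the high-affinity IgE receptor in CPM per kb of exonic sequence (log axis), by group, with points for libraries and bars for group means, and libraries with 0 reads not drawn. Fcer1g, at 649 to 2665 CPM per kb, stands far above Fcer1a and Ms4a2 in every group, and the points of Fcer1a and Ms4a2 shift upward in the 3 inflamed groups.

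Prss34, the serine protease also known as mast cell protease 11, was the most abundant of the 8 genes in both inflamed monocyte groups. Resting CCR1/2+ve libraries held 0, 79, 390 and 0 reads, a spread that covered the resting CCR2+ve libraries at 90, 107, 216 and 62. The inflamed libraries held 3283, 3032 and 2610 reads in CCR1/2+ve, 2125, 3170, 3240 and 5244 in CCR2+ve and 5907, 4733, 2150 and 3386 in CCR1-labelled cells. The lowest inflamed library, at 2125 reads, was above the highest resting one, at 390 reads. The means were 142 ± 23.8 CPM (SD, n = 3) in inflamed CCR1/2+ve, 156 ± 54.0 (SD, n = 4) in inflamed CCR2+ve and 185 ± 72.5 (SD, n = 4) in CCR1-labelled libraries. The ratio to resting was 36.3 (33.1 to 40.0) in CCR1/2+ve and 33.8 (30.8 to 37.1) in CCR2+ve monocytes. The first of these rests on resting replicate 3, which held 390 of the 469 reads of its group, and was 170 without it.

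Cpa3, a carboxypeptidase stored in mast cell granules, was less abundant and was high in the same libraries. The reads were 5, 8, 74 and 0 in resting CCR1/2+ve and 12, 13, 29 and 4 in resting CCR2+ve libraries, with replicate 3 again the highest of each. In inflamed libraries they were 121, 201 and 103 in CCR1/2+ve, 123, 256, 179 and 124 in CCR2+ve and 314, 253, 94 and 149 in CCR1-labelled cells. The lowest inflamed value, 94 reads in CCR1-labelled replicate 3, was above the highest resting value, 74 reads. The ratio was 9.33 (7.39 to 11.9) in CCR1/2+ve and 13.7 (10.5 to 18.2) in CCR2+ve monocytes, and these were 49.3 and 20.5 without replicate 3 of the resting group.

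Cyp11a1, which cleaves the side chain of cholesterol in the first step of steroid synthesis, went from the floor to a clear signal. The resting CCR1/2+ve libraries held 2 reads in all and the resting CCR2+ve libraries 1, both at the floor, and all 3 reads were in replicate 3 of each group. The inflamed libraries held 84, 80 and 99 reads in CCR1/2+ve, 31, 122, 114 and 100 in CCR2+ve and 97, 109, 21 and 63 in CCR1-labelled cells. The means of the 3 inflamed groups, 4.14, 4.22 and 3.32 CPM, lay close together and their ranges overlapped. With so few resting reads the ratio is known only within wide bounds, at 251 (68.8 to 2085) in CCR1/2+ve and 427 (76.2 to 16929) in CCR2+ve monocytes. Set against the floor of 3 reads these ratios were 167 and 142, so their order cannot be read.

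Hdc, the enzyme that makes histamine from histidine, did not follow the other enzymes. Resting CCR1/2+ve libraries held 303, 706, 280 and 219 reads and resting CCR2+ve libraries 94, 194, 142 and 80. The inflamed libraries held 186, 193 and 221 reads in CCR1/2+ve and 142, 196, 228 and 219 in CCR2+ve monocytes, overlapping the resting libraries of their population in both cases. The ratio of inflamed to resting was 0.760 (0.690 to 0.836) in CCR1/2+ve and 1.79 (1.60 to 2.01) in CCR2+ve monocytes, below 1 in one population and above it in the other. The CCR1-labelled libraries held 15803, 15189, 16974 and 14618 reads, or 719 ± 45.9 CPM (SD, n = 4). The leading markers of those libraries were of the neutrophil lineage, so Hdc is not read here as particular to basophils and mast cells.

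Il4, the type 2 cytokine, and Gata2, the transcription factor, were at the edge of detection. Il4 had 10 and 4 reads in resting CCR1/2+ve and CCR2+ve cells and 2, 6 and 7 reads in inflamed CCR1/2+ve, CCR2+ve and CCR1-labelled cells, with at most 5 in a library. The inflamed CCR1/2+ve group was at the floor. The counting interval of its ratio reached from 0.0407 to 1.79 in CCR1/2+ve and from 0.414 to 8.42 in CCR2+ve monocytes, so a difference in either direction was not detectable at this depth. Gata2 had 2, 4, 5 and 3 reads in resting CCR1/2+ve and 5, 4, 4 and 2 in resting CCR2+ve libraries. It had 10, 8 and 5 reads in inflamed CCR1/2+ve, 6, 12, 8 and 12 in CCR2+ve and 13, 26, 1 and 5 in CCR1-labelled libraries. After normalisation each inflamed monocyte library was above each resting library of its population, at a ratio of 3.14 (1.55 to 6.59) and 2.95 (1.59 to 5.77), and the CCR1-labelled libraries overlapped both resting groups.

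The CCR1-labelled libraries also differed from resting monocytes in 6 of the 8 genes, which were higher in every library than in resting CCR1/2+ve cells, where 25.1% of all genes tested were, and than in resting CCR2+ve cells, where 26.4% were. Hdc took the place of Gata2 among the 6, and Il4 and Gata2 were the genes that overlapped. The ratios to resting CCR1/2+ve cells were 57.7 for Hdc, 48.0 for Prss34, 43.1 for Fcer1a, 21.3 for Ms4a2 and 13.0 for Cpa3. The median log2 ratio of the 8 genes was 4.92 against resting CCR1/2+ve and 4.91 against resting CCR2+ve cells. Without resting CCR1/2+ve replicate 3 the ratio was 225 for Prss34 and 68.4 for Cpa3, and Fcer1a and Cyp11a1 were left with 0 resting reads and were at least 159-fold and 106-fold higher, set against 3 reads. Without resting CCR2+ve replicate 3 the ratios to that group went from 24.3 to 63.9 for Fcer1a, from 37.0 to 61.7 for Ms4a2 and from 16.4 to 24.7 for Cpa3. Gata2, at a ratio of 4.47 and 3.53 to the 2 resting groups, was at 2.53 and 2.00 without CCR1-labelled replicate 2, which held 26 of the 45 reads.

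**Figure D3:**
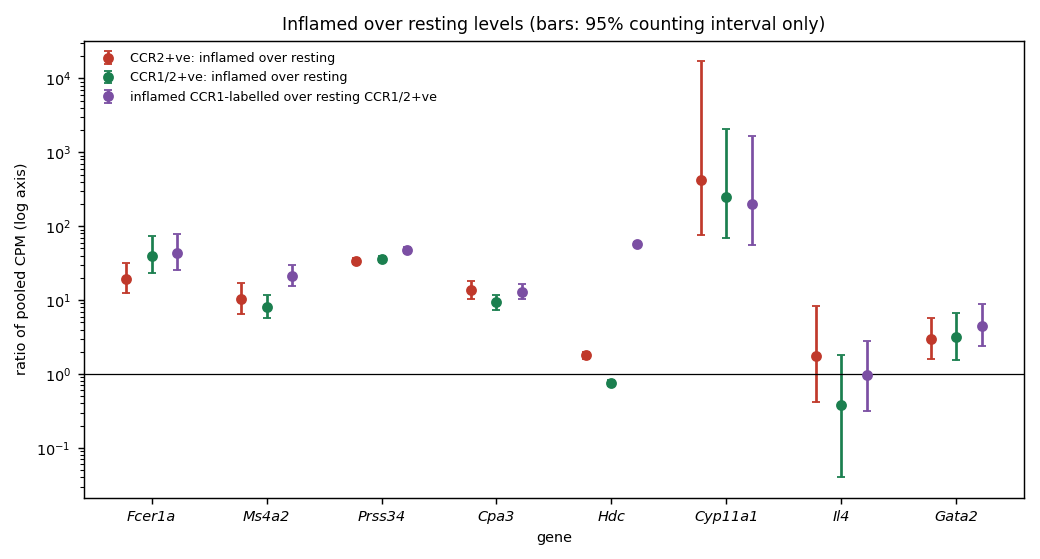
Ratio of pooled CPM, inflamed over resting (log axis), for each gene in CCR2+ve and CCR1/2+ve monocytes and for CCR1-labelled libraries over resting CCR1/2+ve monocytes, with 95% intervals for counting error only. Cyp11a1 has the highest ratios and the widest intervals, Il4 crosses 1 throughout, and Hdc parts the monocyte ratios, 1.79 and 0.760, from the CCR1-labelled ratio of 57.7.

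Per kb of exonic sequence Prss34 stood apart from the rest in inflamed monocytes. The length was taken over all annotated exons of a gene, from 998 bases for Fcer1a to 6389 for Hdc. It may exceed that of the transcript made, and the order below depends on it. In inflamed CCR2+ve monocytes the mean levels in CPM per kb ran from Prss34 (128) over Cpa3 (5.17), Fcer1a (3.98), Hdc (1.40), Cyp11a1 (0.878) and Ms4a2 (0.727) to Gata2 (0.0800) and Il4 (0.0580). The ranges of the 4 libraries did not overlap between Prss34 and Cpa3, between Fcer1a and Hdc or between Ms4a2 and Gata2, and all other neighbours in this order overlapped. The inflamed CCR1/2+ve libraries gave the same gaps after Prss34 and before Gata2, with Fcer1a (4.64) and Cpa3 (4.49) overlapping each other. In the CCR1-labelled libraries Hdc (113) overlapped Prss34 (152).

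The resting populations were compared to ask whether monocytes that express both receptors differ in these genes from those that express CCR2 alone. Of the 8 genes, 1 was called at an adjusted p below 0.05 and a log2 fold change of at least 1, against 4.25% of all genes tested, and that gene was Hdc. CCR1/2+ve monocytes stood at 12.3 ± 6.41 CPM (SD, n = 4) and CCR2+ve monocytes at 4.90 ± 1.68 CPM (SD, n = 4). The log2 fold change was 1.41 (SE 0.35, edgeR adjusted p = 0.0160). The groups overlapped, at 6.75 to 21.5 against 3.32 to 6.96 CPM, and the exact two-sided permutation test gave p = 0.0571. The fit that pairs libraries by replicate number gave 1.35 (edgeR adjusted p = 6.91e-06). The call was lost without CCR1/2+ve replicate 2, whose 706 reads were the highest (log2 fold change 0.97), and also without CCR2+ve replicate 1 (1.33) or 4 (1.25).

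Early granule genes, which mark immature cells of the neutrophil lineage, moved with Hdc between the resting populations. Of the 7 tested, 5 were called higher and none lower in CCR1/2+ve monocytes (median log2 fold change 2.45), and their summed level was 3559 to 6965 CPM against 905 to 2032 CPM. Of 14 mature neutrophil genes 5 were called higher, and of 5 eosinophil genes 2, Ccr3 (log2 fold change 3.44) and Siglecf (1.32). Of 13 other basophil and mast cell genes 4 were called higher, namely Cd63 (2.72), Kit (2.18), Hpgds (1.77) and Rab44 (1.05), and Il1rl1 was called lower. Of 10 dendritic cell genes 5 were called lower. The part of these genes, or of cells that express them, in the difference in Hdc was not tested. The other 7 genes had log2 fold changes between −0.58 and 1.11 with no call, and replicate 3 of the CCR1/2+ve libraries moved several of them. Without it the log2 fold change of Cpa3 went from 0.58 to −1.91 and that of Cyp11a1 from 0.68 to −1.65.

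**Figure D4:**
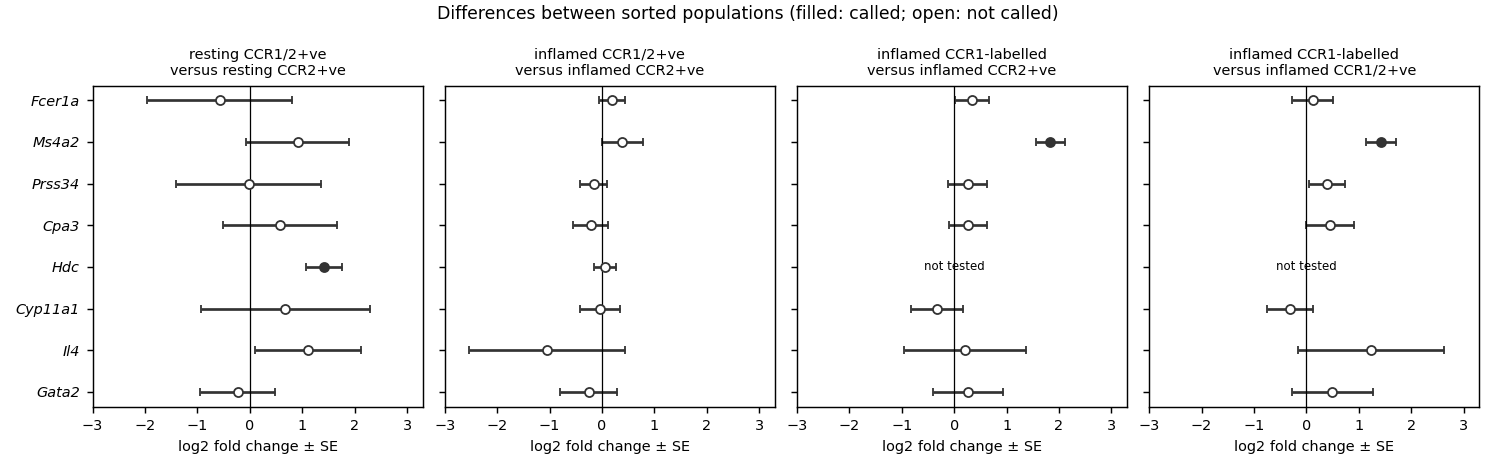
Log2 fold change with its SE (edgeR) for each gene in the 4 comparisons between sorted populations of the same state, with filled points for genes called and open points for the rest. Hdc in the resting comparison and Ms4a2 in both comparisons of CCR1-labelled libraries are filled, and Hdc is not drawn in the latter because it was not tested there.

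Inflamed CCR1/2+ve and CCR2+ve monocytes were compared with the same question. None of the 8 genes was called by edgeR, against 0.145% of all genes tested, none had an unadjusted p below 0.05 and DESeq2 called 0. The log2 fold changes ran from −1.05 for Il4, on 2 against 6 reads, to 0.39 for Ms4a2 (SE 0.39), with edgeR adjusted p from 0.814 to 1. Prss34 differed by −0.16 (SE 0.26), Cpa3 by −0.22 (SE 0.34), Fcer1a by 0.20 (SE 0.25) and Cyp11a1 by −0.04 (SE 0.38). These values bound the differences only to within their errors and do not show that the populations have equal levels.

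The CCR1-labelled libraries were compared with the inflamed monocytes to ask whether these genes differ between libraries of the same inflamed state that carry different labels. Against inflamed CCR2+ve monocytes 1 of the 7 genes tested was called, with 31.3% of all genes called in this comparison. That gene was Ms4a2, at 7.23 ± 1.12 CPM (SD, n = 4) against 2.04 ± 0.868 CPM (SD, n = 4), a log2 fold change of 1.83 (SE 0.28, edgeR adjusted p = 3.36e-05). The groups did not overlap, nor did those of 45.4% of all genes, and the exact two-sided permutation test gave p = 0.0286, the smallest that 70 permutations allow. Leaving out each library in turn kept the call in 8 of 8 fits, with log2 fold changes from 1.66 to 2.08. Against inflamed CCR1/2+ve monocytes Ms4a2 was again the gene called of 7, with 27.7% of all genes called, at a log2 fold change of 1.42 (SE 0.29, edgeR adjusted p = 0.00107). Here too the groups did not overlap, nor did those of 47.4% of all genes. The call was kept in 7 of 7 fits without a library, and the exact p of 0.0571 was the smallest that 35 permutations allow. Ms4a2 was highest of all groups in these libraries, which may have helped to put it among the 8, so the tests are not independent of the choice.

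The partner of Ms4a2 in the receptor did not show this difference. Fcer1a was at 4.97 ± 2.58 CPM (SD, n = 4) in CCR1-labelled libraries, with log2 fold changes of 0.34 (SE 0.33, edgeR adjusted p = 0.433) and 0.12 (SE 0.40, edgeR adjusted p = 0.859) against the CCR2+ve and the CCR1/2+ve libraries of the inflamed state. The gamma chain Fcer1g was called lower, at −1.62 (SE 0.11, edgeR adjusted p = 2.72e-09) and −1.71 (SE 0.11, edgeR adjusted p = 2.16e-08). Prss34, Cpa3, Cyp11a1, Il4 and Gata2 were not called in either comparison and overlapped between the groups in both. Hdc was 80.5-fold and 76.0-fold higher by the fit, without overlap, and is given as a description, since its ratio to resting cells was 57.7 and 144 in these libraries against 0.760 and 1.79 in inflamed monocytes, and these libraries may have been what put it on the list.

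Neutrophil lineage and eosinophil markers moved with Ms4a2 and Hdc in the CCR1-labelled libraries, while markers of progenitors and other basophil and mast cell genes moved in both directions. Against inflamed CCR2+ve monocytes 7 of 7 early granule genes and 12 of 14 mature neutrophil genes were called higher, with summed levels of 45726 to 54763 against 480 to 887 CPM and 109653 to 160065 against 2074 to 2254 CPM. Of 5 eosinophil genes 4 were called higher, summing to 39.4 to 90.2 against 2.32 to 3.86 CPM, with Prg2, a granule protein of eosinophils, at 31.4 CPM. Of 10 stem and progenitor genes 5 were called higher and 3 lower, with Kit, the stem cell factor receptor found on mast cells and on progenitors, at 160 against 0.138 CPM and Meis1 at 0.0909 against 11.3 CPM. Of 13 other basophil and mast cell genes 6 were called higher and 3 lower, with Cd63, a granule membrane protein, at 2090 against 5.53 CPM and Itgb7 at 1.28 against 122 CPM. Of 10 T and NK cell genes 1 was called higher and 3 lower, with Nkg7, the most abundant of them, at 1560 against 2.49 CPM. Of 9 B cell genes 1 was called higher and 1 lower, with Ighm, the most abundant, at 593 against 1305 CPM. For other monocytes of the study the stated gate excludes cells with Ly6G or SiglecF, markers of neutrophils and eosinophils, and whether it was used for these libraries is not stated. The part of these cells in the levels of Ms4a2 and Hdc was not tested.

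Within groups, libraries that were high in one of Prss34, Cpa3 and Fcer1a tended to be high in the others. The correlation of deviations from group means of log2 CPM over the 19 libraries was 0.83 between Prss34 and Cpa3, 0.87 between Cpa3 and Fcer1a and 0.71 between Prss34 and Fcer1a. In the 11 inflamed libraries alone these were 0.61, 0.76 and 0.87, and Cyp11a1 correlated at 0.82 with Prss34. Resting CCR1/2+ve replicate 3 was high in these genes, and CCR1-labelled replicate 3 was low in Prss34, Cpa3, Fcer1a, Cyp11a1 and Gata2. Without the latter the 3 values in inflamed libraries were 0.43, 0.63 and 0.80. Over the 11 inflamed libraries Ms4a2 was less tied to Prss34 (0.058) and Fcer1a (0.24), and so was Hdc (0.30 and 0.066). This depended on the libraries taken. Over all 19 the values were 0.60 and 0.42 for Ms4a2 and 0.48 and 0.16 for Hdc. Without CCR1-labelled replicate 3 the inflamed values were −0.016 and 0.22 for Ms4a2 and 0.54 and 0.33 for Hdc. There Hdc was tied to Prss34 (0.54) more than Cpa3 was (0.43). In CCR1-labelled replicate 3 Ms4a2 stood at 138 reads, as in replicate 1. The points share library depth and preparation, and the values are descriptions over these libraries.

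**Figure D5:**
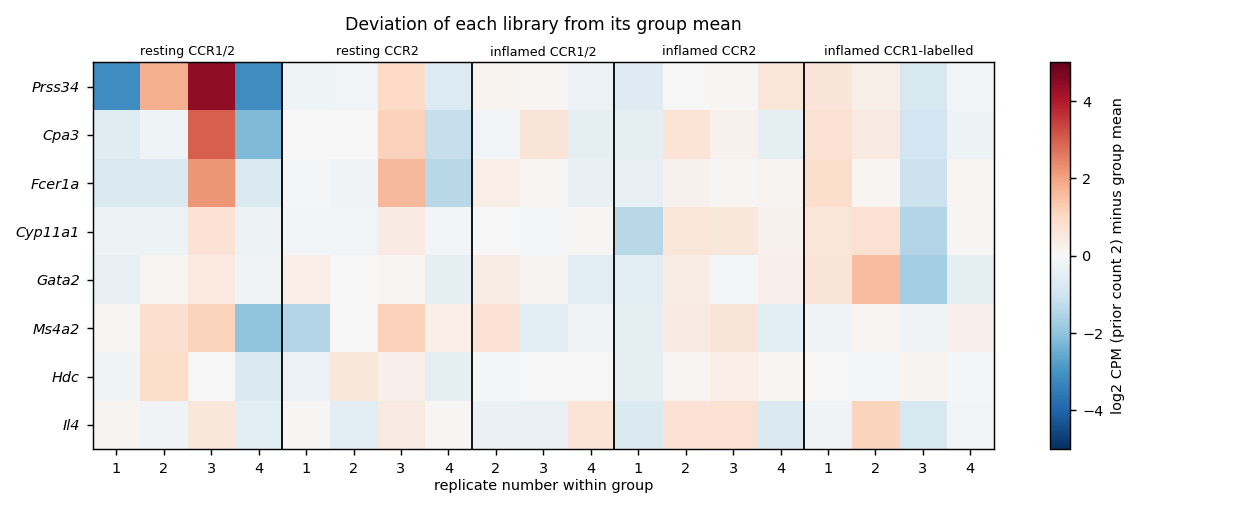
Deviation of log2 CPM (prior count 2) from the group mean for each gene (rows) and library (columns, by group and replicate number), red above and blue below the mean. Replicate 3 is red in Prss34, Cpa3 and Fcer1a in both resting groups, and replicate 3 of the CCR1-labelled group is blue in these genes, Cyp11a1 and Gata2.

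Cd200r3, an activating receptor of basophils and mast cells, had the profile most like that of the 8 genes. Over the 11 inflamed libraries its log2 CPM correlated at 0.87 with their mean scaled profile, the highest of 10937 genes considered, all with a mean of at least 1 CPM over these libraries, and at 0.89 in deviations from group means. The next 5 genes were Tab3 (0.79), Mtrex (0.78), Gm37423 (0.76), Gm14636 (0.74) and Gm10451 (0.73). Cd200r3 held 9, 6, 0 and 0 reads in resting CCR1/2+ve and 5, 5, 4 and 2 in resting CCR2+ve libraries. In inflamed libraries it held 65, 31 and 40 reads in CCR1/2+ve, 34, 104, 56 and 55 in CCR2+ve and 93, 97, 32 and 61 in CCR1-labelled cells, with CCR1-labelled replicate 3 again the lowest of its group. All inflamed libraries, the CCR1-labelled ones among them, were above all resting ones. Cd200r3 was called higher in inflamed cells, at a log2 fold change of 4.07 in CCR2+ve (SE 0.46, edgeR adjusted p = 2.94e-06) and 3.93 in CCR1/2+ve monocytes (SE 0.83, edgeR adjusted p = 0.00248). It passed the filter of 1 CPM through its inflamed level, with 0.120 and 0.155 CPM in resting CCR1/2+ve and CCR2+ve libraries. Such a filter favours genes high in the inflamed state. The difference from resting cells and its p values are therefore not independent of how the gene was picked.

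Other genes of these lineages and pathways were taken from 6 lists that hold none of the 8 genes. In inflamed against resting CCR2+ve monocytes 14 of the 58 tested were called higher and 12 lower, where 9.37% and 19.2% of all genes were. In CCR1/2+ve monocytes the counts were 17 and 13, where 9.16% and 19.4% of all genes were. The lists were not tested as sets.

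Other basophil and mast cell genes moved in both directions. Of 13 tested, 3 were called higher and 3 lower in CCR2+ve monocytes and 4 and 4 in CCR1/2+ve monocytes, with medians of 0.33 and 0.10 on the log2 scale. Cd200r3, Ifitm1 (log2 fold change 2.78 and 3.17) and Adora3, an adenosine receptor (1.80 and 1.63), rose in CCR2+ve and CCR1/2+ve monocytes. Il1rl1 was called higher in CCR1/2+ve monocytes only, from 0 to 0.394 CPM (log2 fold change 6.31, SE 1.18). Itgb7, an integrin chain (−2.73 and −2.55), Slc18a2, the transporter that loads histamine into vesicles (−1.60 and −1.68), and Kit (−2.59 and −3.11) fell in both. The tryptase genes Tpsab1 and Tpsg1 and the mast cell receptors Mrgprb1 and Mrgprb2 were at 0 reads throughout the 19 libraries. Mcpt8 and the other granule protease genes on chromosome 14 were not analysed here, since 0 of 2532 annotated genes of that chromosome are in the table used.

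Genes of IgE receptor signalling were expressed in all groups, with 13 or 14 of 15 above 1 CPM, and so were both beta chains of the IL-3 receptor and its mediators Jak2, Stat5a and Stat5b. Il3ra, the chain that binds IL-3, was not analysed here. Of the 15 signalling genes, 2 were called higher and 1 lower in CCR2+ve and 3 and 0 in CCR1/2+ve monocytes. Rasgrp4, an exchange factor for Ras, rose by 1.66 and 1.94 on the log2 scale, and the adaptor Grap2 by 3.43 and 4.69. Of these 5 genes of the IL-3 receptor and its mediators, 3 were called higher in both populations and none lower. Csf2rb, the beta chain shared with the GM-CSF receptor, went from 188 to 524 CPM in CCR2+ve and from 160 to 631 CPM in CCR1/2+ve monocytes (log2 fold changes 1.41 and 1.85). Csf2rb2, the beta chain used by IL-3 alone, went from 21.5 to 125 and from 15.5 to 115 CPM (2.47 and 2.77). In CCR1-labelled libraries both were lower than in inflamed CCR2+ve monocytes, at 214 and 19.6 CPM (−1.29, edgeR adjusted p = 3.57e-08, and −2.66, edgeR adjusted p = 1.77e-10).

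Transcription factors of these lineages went down where they changed. Of 10 tested, 5 were called lower and none higher in each population, with medians of −1.23 and −1.44. Lyl1 fell from 256 to 9.87 CPM in CCR2+ve and from 225 to 6.66 CPM in CCR1/2+ve monocytes, and Runx1 from 85.0 to 36.6 and from 90.4 to 30.4 CPM. Among type 2 cytokines and their receptors, 3 of 5 tested were called higher and 1 lower in both populations. Il4ra, the chain that binds IL-4, rose from 31.8 to 346 CPM and from 21.8 to 271 CPM, beside the few reads of Il4 itself, and Stat6, which transmits its signal, from 266 to 648 and from 187 to 701 CPM. Crlf2, part of the receptor for TSLP, fell by 3.74 and 4.23 on the log2 scale.

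Among 10 partners of the steroid and histamine enzymes, 3 were called higher and 2 lower in CCR2+ve monocytes and 4 and 3 in CCR1/2+ve monocytes. Fdx1, the ferredoxin that passes electrons to CYP11A1, fell from 12.8 to 0.532 CPM and from 15.3 to 0.536 CPM (log2 fold changes −4.64 and −4.95, edgeR adjusted p = 4.94e-10 and 8.35e-09), in the same libraries in which Cyp11a1 was higher. Pdxk, the kinase that makes the cofactor of HDC, rose from 45.7 to 198 and from 38.2 to 170 CPM, and Hrh2, a histamine receptor, by 2.22 and 2.94 on the log2 scale. Hnmt, which inactivates histamine, fell from 17.9 to 5.75 and from 33.4 to 12.3 CPM.

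Other cell types that a sort could hold were followed by marker lists in the same libraries. Of 11 erythroid genes, 10 were called lower in inflamed CCR2+ve and 8 in inflamed CCR1/2+ve monocytes, from a summed level of 101 to 306 CPM to one of 2.28 to 5.14 CPM and from 61.8 to 190 CPM to 2.33 to 5.35 CPM. Of the 5 eosinophil genes tested, 2 were called higher and none lower in CCR2+ve and 1 and 1 in CCR1/2+ve monocytes, with Epx, eosinophil peroxidase, at 0 reads in both resting groups and in inflamed CCR1/2+ve libraries. Of 6 megakaryocyte genes 1 was called higher in each population. Of 9 B cell genes 1 was called lower and none higher in each, and of 10 T and NK cell genes 1 was called higher in each and 3 and 1 lower. Of 14 mature neutrophil genes 6 were called higher in each population, and of 7 early granule genes 3 and 5 were called lower. Of 10 stem and progenitor genes 6 and 5 were called lower and 1 higher in each population, and of 10 dendritic cell genes 6 and 4 were called lower and 1 higher in each. The monocyte core list had 2 higher and 4 lower of 18 in CCR2+ve and 5 and 3 in CCR1/2+ve monocytes. The part of any of these cells in the levels of the 8 genes was not tested.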

How the data were processed

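Total RNA of sorted bone marrow cells was converted to libraries with a low-input kit and sequenced with paired ends. The deposited values are raw counts of reads per gene, which the authors made by trimming with fastp and mapping with STAR 2.7.10a to GRCm38 (Ensembl release 91), with reads kept at 1 place and with at least 35 matched bases. Which strand was counted is not given in the sources used here. Of the 20 columns of counts, 19 matched a labelled sample and 1 was not used. For monocytes sorted for culture and for single-cell sequencing the study states a gate of CD11b-positive, Ly6C-high cells without Ly6G or SiglecF, and the antibody list of the bulk sort was not used here.

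The table holds 50854 genes, and tests were run on the 18652 that averaged 1 read or more per library. Groups were taken from the labels. Counts were scaled by TMM and tested with edgeR 4.0.16 (R 4.3.3), by quasi-likelihood F tests on the groups of each comparison, with Benjamini-Hochberg adjustment over all genes tested, and called at an adjusted p below 0.05 and a log2 fold change of at least 1. Exact permutation tests compared group means of CPM, without a log, and used scipy 1.17.1. The fits were tested on simulated data. Alternatives were DESeq2 1.42.0, other filters, scalings and sample sets, a replicate block and leaving out each library.

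Same-numbered libraries deviated together between the resting populations (correlations 0.288 to 0.536 over 8878 genes, 4 pairs) and between CCR1-labelled and inflamed CCR2+ve libraries (0.108 to 0.206), a pairing seen in the data and not stated in the labels.

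The genes, lists and tests were chosen with earlier results of these data known. All 8 genes are named, with genes from among up to 3 a list, comparison and direction by p. The receptor chains, the most abundant gene of some other cell type lists and the 6 genes most like the profile are named too. Csf1r, Ccr2, Ccr1, Epx, Elane, Prg2, Kit and Cd63 were otherwise named after their values were seen. The count of genes higher in every inflamed library and the ratios to resting cells were recomputed without each library as alternatives added after the data were seen.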

Additional observations from a re-analysis of the deposited data

Results flagged for a closer look

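Of 32 combinations of gene and group with 4 libraries, 5 held a library whose gap to the nearest of the other 3, over the range of the group, passed Dixon's 95% critical value. For values with continuous error chance flags about 1 in 20, but a group with 0 reads in 3 libraries passes whatever the value of the last, as Fcer1a and both groups of Cyp11a1 did, so the count of 5 is not read against that rate. Resting CCR1/2+ve replicate 3 was the highest of its group in 4 genes, at 0.548 CPM for Fcer1a, 15.3 CPM for Prss34, 2.90 CPM for Cpa3 and 0.0783 CPM for Cyp11a1, the last on 2 reads. Resting CCR2+ve replicate 3 was the highest in Cyp11a1 at 0.0391 CPM, on 1 read. The values of Fcer1a, Prss34 and Cpa3 without the first of these libraries are given with each gene above, and the cause of its levels was not tested.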

How the results depend on the processing

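Of 825 recomputed values, 761 kept their direction and side of the threshold or moved little. The number of the 8 genes called between resting populations fell from 1 to 0 with no filter on low counts (Hdc log2 fold change 1.41) and ran from 0 to 1 as single libraries were left out (Hdc 0.97 to 1.64). With a replicate block the log2 fold change changed sign for Cpa3 between resting populations (−0.38), Hdc between inflamed populations (−0.075), Gata2 in CCR1-labelled against CCR2+ve (−0.073), and Fcer1a (−0.27) and Gata2 (−0.012) against CCR1/2+ve cells, none of them called in either fit, and the block changed no call of the 8 genes. Leaving out single libraries also turned the sign of uncalled differences. Between resting populations the ranges were −5.51 to 0.77 for Fcer1a, −2.39 to 0.43 for Prss34, −1.91 to 1.15 for Cpa3 and −1.65 to 2.32 for Cyp11a1. Between inflamed populations they were −0.052 to 0.65 for Ms4a2, −0.34 to 0.075 for Prss34, −0.62 to 0.056 for Cpa3, −0.078 to 0.19 for Hdc, −0.34 to 0.14 for Cyp11a1 and −0.49 to 0.030 for Gata2. For CCR1-labelled against CCR2+ve cells they were −0.047 to 0.60 for Fcer1a, −0.035 to 0.52 for Cpa3, −1.03 to 0.77 for Il4 and −0.55 to 0.64 for Gata2, and against CCR1/2+ve cells −0.21 to 0.38 for Fcer1a, −0.0097 to 3.88 for Il4 and −0.31 to 0.88 for Gata2. The companion genes called higher in inflamed cells numbered 27 (CCR2+ve) and 28 (CCR1/2+ve) with no fold cutoff, which admits smaller changes. The median log2 ratio of the 8 genes in CCR1/2+ve monocytes was 2.78 per M total reads without TMM scaling, and without single libraries it ran from 2.66 to 4.50, highest without resting replicate 3. In CCR2+ve monocytes it ran from 3.34 to 4.23, highest without resting replicate 3, and the count of genes higher in every inflamed library from 6 to 7. The cause of these changes was not tested. Depth limits Il4, Gata2 and resting Cyp11a1, which rest on a few reads a library.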
